A study of Homo sapiens with 27 samples.

Results

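DAPP1, EIF5, IFRD1, SLC25A25, TUFT1, TENT5A and NET1 are 7 of the 60683 genes in the tables, of which 16173 had enough reads to be tested. They were selected on the change in their counts between cultured breast cells given a form of calcium oxalate crystal and untreated cells, as earlier results of these data had them changed with every form. Those changes are therefore given as a description, with no test. In the fit used here 6 of the 7 were called with all 5 forms. NET1 was called with 3, so in this fit the description was met by DAPP1, EIF5, IFRD1, SLC25A25, TUFT1 and TENT5A and not by NET1. The same contrasts chose the genes, so these calls are no separate support. They also depended on the fit and on single libraries, as given below.

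The cells were MCF10DCIS.com, an established line derived from human MCF10A breast cells that is used to model ductal carcinoma in situ. Every group was this 1 line, seeded at 500000 cells and left for 6 h before any crystals were added. The 5 crystal groups each received 0.1 mg/mL and have 4 libraries, named A to D. COM is the monohydrate of calcium oxalate, as plates. The dihydrate was given as dumbbell (DB), spherical (SPH), thick bipyramidal (TK) or thin bipyramidal (TN) crystals. Untreated Control cells gave 7 libraries, A to G. How long the crystals were left is not stated in the sources used here. The labels do not say whether the libraries of a group are separate cultures, so a p-value reflects the spread between these libraries, part of which may be technical.

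By serial number the 27 libraries form 3 sets. In set 1 are Control A and B and the same letters of COM, DB, SPH and TN. In set 2 are all TK libraries, the C libraries of the other 4 forms and Control C to F, and in set 3 the D libraries and Control G. TK has no library outside set 2, so its comparison with Control rests mainly on that set, though all libraries entered the fit. Depth ran from 13115669 to 38672521 expected counts per library, with a median of 19251257. Keratin KRT5 (1900 to 3250 CPM, counts scaled to a common library size) and EPCAM (255 to 337 CPM) marked every library as epithelial, while the leukocyte gene PTPRC reached at most 0.178 CPM. Other cell type markers were low but present, CD68 at 3.36 to 20.5 CPM and the endothelial marker PECAM1 at 1.89 to 14.3 CPM. The 4 leukocyte markers summed to 6.09 to 17.7 CPM with COM, 4.65 to 20.6 with DB, 5.6 to 9.86 with SPH, 3.36 to 4.93 with TK and 5.87 to 9.79 with TN, against 5.39 to 12.5 CPM in Control, and their part in the results was not tested. TN B stood apart with 653 CPM of the liver transcript ALB, against a median of 1.4 CPM over the libraries. The TN fold changes of the listed genes and their calls between forms are also given below without TN B. Other TN values include it.

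Calcium oxalate is a mineral of kidney stones and of some breast microcalcifications, where it is usually the dihydrate. The listed genes belong to no single pathway. They span signalling (DAPP1, NET1), control of transcription and translation (IFRD1, EIF5), RNA tails (TENT5A), mitochondrial transport (SLC25A25) and a protein first described in tooth enamel (TUFT1). Several genes of the early response to growth factors, stress and calcium carry AP-1 or CRE elements, short DNA words bound by the FOS, JUN and CREB families.

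The 250 bases before each annotated start were taken from RefSeq (GRCh38.p14), which gave 15 windows for the 7 genes. AP-1 (TGACTCA or TGAGTCA) was found on either strand in a window of EIF5 and of IFRD1, and in 4.2% of all 35116 windows. CRE (TGACGTCA) was found for IFRD1 and SLC25A25, and in 1.65% of all windows. EGR (GCGTGGG) was found for SLC25A25 (6.19% of all windows), the heat shock element GAANNTTC for NET1 (5.78%), the TATA box TATAAA for TENT5A (10.7%) and the CCAAT box for every listed gene but TENT5A (32%). The C/EBP-ATF word TGATGNAA (3.14% of all windows), the NF-kB word (9.96%) and the CArG box (1.16%) were in none of the 15. Genes with several starts had several chances to match, and a match is not a bound site. Counted by gene, a match in any window was found in 5.19% of all genes for AP-1, 2.03% for CRE and 7.41% for EGR. The shares were 7.05% for the heat shock element, 13% for the TATA box and 37% for the CCAAT box, which was in 9 of the 15 windows. The windows of EIF5 (chr14:103334638-103334887, plus strand), IFRD1 (chr7:112450210-112450459, plus strand), SLC25A25 (chr9:128098257-128098506, plus strand) and TENT5A (chr6:81752682-81752931, minus strand) are shown because they hold the rarer words of the higher genes and the TATA box of the lower one. Capitals mark AP-1 in EIF5, CRE and CCAAT in IFRD1 and SLC25A25, and TATA boxes in TENT5A.
EIF5: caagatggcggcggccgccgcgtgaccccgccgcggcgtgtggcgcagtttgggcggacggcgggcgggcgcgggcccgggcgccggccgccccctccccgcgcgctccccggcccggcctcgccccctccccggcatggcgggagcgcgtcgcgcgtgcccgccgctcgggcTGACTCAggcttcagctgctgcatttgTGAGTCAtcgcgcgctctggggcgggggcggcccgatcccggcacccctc
IFRD1: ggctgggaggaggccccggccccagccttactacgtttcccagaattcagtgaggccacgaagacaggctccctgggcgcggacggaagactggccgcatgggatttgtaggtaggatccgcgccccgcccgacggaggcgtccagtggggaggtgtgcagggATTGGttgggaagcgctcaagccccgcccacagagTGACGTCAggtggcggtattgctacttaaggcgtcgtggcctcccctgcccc
SLC25A25: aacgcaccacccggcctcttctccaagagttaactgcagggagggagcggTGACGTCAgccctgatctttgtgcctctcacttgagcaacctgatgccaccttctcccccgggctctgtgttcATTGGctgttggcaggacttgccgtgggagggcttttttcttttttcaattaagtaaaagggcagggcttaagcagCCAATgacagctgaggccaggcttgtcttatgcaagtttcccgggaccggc
TENT5A: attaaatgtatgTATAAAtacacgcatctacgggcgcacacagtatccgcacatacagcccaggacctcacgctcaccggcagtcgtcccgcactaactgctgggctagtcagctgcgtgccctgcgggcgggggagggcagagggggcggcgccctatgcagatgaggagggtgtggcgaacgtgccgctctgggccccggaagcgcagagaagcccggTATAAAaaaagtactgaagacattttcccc
The AP-1 words of EIF5 lie 71 to 77 and 44 to 50 bases before the start, the CRE of IFRD1 45 to 52 and that of SLC25A25 193 to 200 bases before it, and the nearer TATA box of TENT5A 25 to 30 bases before it.

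Each form was compared with Control by edgeR's quasi-likelihood test with the library set as a term. Called here means an adjusted p under 0.05 (Benjamini-Hochberg, over all genes tested). With COM all 7 listed genes were called, 6 higher and 1 lower, where 6.36% of all genes were called (3.94% higher and 2.42% lower). With DB all 7 were called, against 10% of all genes (5.92% higher, 4.1% lower). With SPH all 7 were called, against 0.111% of all genes (0.0804% higher, 0.0309% lower). TK gave 6 of 7, with NET1 the exception, against 15.4% of all genes (8.04% higher, 7.33% lower). TN also gave 6 of 7 without NET1, against 11.7% of all genes (6.84% higher, 4.88% lower). These contrasts chose the genes, so nothing is read from the counts. In RNA of whole cultures, a change in all cells and one in a share of them cannot be told apart. Over all genes 8 were called in every comparison, or 0.0495%. The 2 outside the list were HSPA1A and HSPA1B, near-identical copies of the Hsp70 chaperone that share reads and are uncertain as single genes, and both were lower. Ordered by the largest adjusted p over the 5 forms, TENT5A and TUFT1 lay just inside the limit. Just outside lay DNASE1 (0.052), SDE2 (0.055) and CSF2 (0.071).

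**Figure D1:**
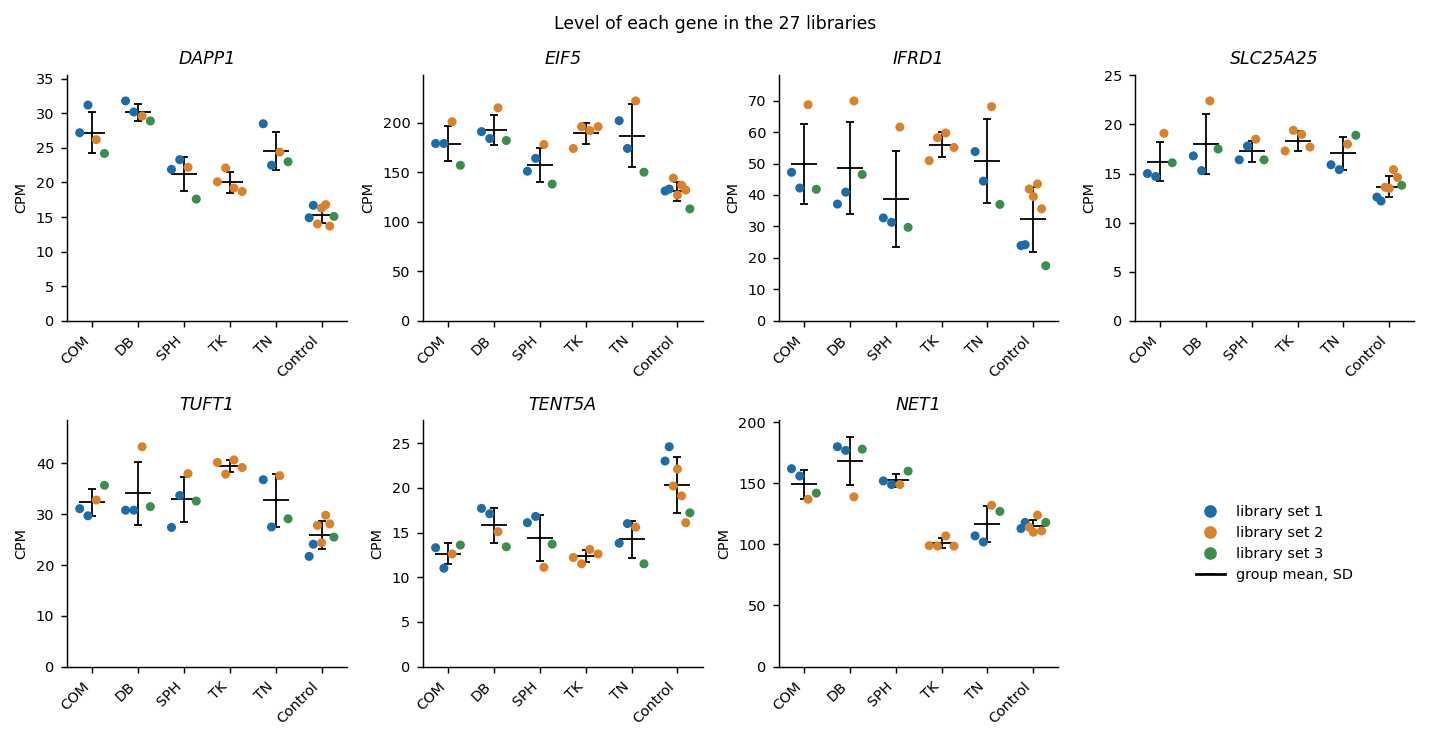
CPM of each listed gene (y axis, from 0) in the 27 libraries by group (x axis), with points coloured by library set and bars for the group mean and SD. Points of TENT5A lie lower with every form than Control of the same set, NET1 is under Control with TK (98.6 to 107 CPM), and IFRD1 differs between sets in Control.

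Of the signalling genes, DAPP1 (chr4:99816833-99870154 on GRCh38, as are the other positions) encodes an adaptor that binds phosphoinositide 3-kinase lipids and is best known from B cells. Its libraries A to D had 27.2, 31.2, 26.2 and 24.2 CPM with COM, and 31.8, 30.2, 29.6 and 28.9 CPM with DB. They had 21.9, 23.3, 22.2 and 17.6 CPM with SPH, 20.1, 22.1, 19.2 and 18.7 CPM with TK, and 28.5, 22.5, 24.4 and 23 CPM with TN. Control ran from 13.7 to 16.8 CPM with a median of 15.1. All 20 crystal libraries were above all 7 Control libraries, with DB the highest group and the lowest library, SPH D, at 17.6 CPM close to the top of Control. The log2 fold change was 0.82 with COM (SE 0.077), 0.97 with DB (SE 0.076), 0.47 with SPH (SE 0.078), 0.39 with TK (SE 0.082) and 0.68 with TN (SE 0.077).

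NET1 (chr10:5412551-5458463) encodes an exchange factor that activates the small GTPase RhoA. Levels were 162, 156, 137 and 142 CPM with COM, and 180, 177, 139 and 178 CPM with DB. They were 152, 149, 149 and 160 CPM with SPH, 99, 98.7, 107 and 98.6 CPM with TK, and 107, 102, 132 and 127 CPM with TN. Control ran from 110 to 124 CPM with a median of 114. COM, DB and SPH libraries all lay above Control, all TK libraries lay below it, and TN libraries fell on either side, A and B below and C and D above. Fitted log2 fold changes were 0.35 with COM, 0.53 with DB and 0.38 with SPH (SE 0.074 each). It was -0.17 with TK (SE 0.077) and 0.00 with TN (SE 0.074, 95% interval -0.15 to 0.15).

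Among genes of transcription and translation, IFRD1 (chr7:112422968-112481017), a transcriptional co-regulator first found as a gene induced by phorbol ester and growth factor, moved the most. Its levels were 47.2, 42.2, 68.7 and 41.8 CPM with COM, and 37.1, 40.9, 69.9 and 46.5 CPM with DB. They were 32.7, 31.3, 61.6 and 29.7 CPM with SPH, 50.9, 58.2, 59.7 and 55.1 CPM with TK, and 53.8, 44.4, 68.1 and 37 CPM with TN. Control ran from 17.5 to 43.5 CPM with a median of 35.6. Taken over all sets the groups overlapped, and the C libraries and Control C to F were high together. Within a set every crystal library was above every Control library. The log2 fold change was 0.92 with COM, 0.87 with DB, 0.52 with SPH, 0.95 with TN and 0.52 with TK, with SEs of 0.092 to 0.095.

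EIF5 (chr14:103333544-103345025) encodes the factor that triggers GTP hydrolysis by eIF2 when the ribosome meets a start codon. It had 179, 179, 201 and 157 CPM with COM, and 191, 184, 215 and 182 CPM with DB. The levels were 151, 164, 178 and 138 CPM with SPH, 174, 196, 192 and 196 CPM with TK, and 202, 174, 222 and 150 CPM with TN. Control ran from 113 to 144 CPM with a median of 132. Only SPH D, at 138 CPM, lay within the Control range, and it was above Control G of its own set at 113 CPM. On the log2 scale EIF5 changed by 0.51 with COM, 0.62 with DB, 0.33 with SPH, 0.45 with TK and 0.57 with TN, with SEs of 0.059 to 0.062.

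TENT5A (chr6:81491439-81752774) encodes a poly(A) polymerase that lengthens the tails of messenger RNAs, and variants of it cause a brittle bone disease. It was the lower gene, with 13.3, 11, 12.6 and 13.6 CPM with COM, and 17.7, 17.1, 15.1 and 13.4 CPM with DB. It had 16.1, 16.8, 11.1 and 13.7 CPM with SPH, 12.2, 11.5, 13.1 and 12.6 CPM with TK, and 13.8, 16, 15.6 and 11.5 CPM with TN. Control ran from 16.1 to 24.6 CPM with a median of 20.2. The COM, TK and TN libraries all lay below Control, while DB A and B and SPH B reached into its range, though not that of their own set. SPH A lay just below the lowest Control library (log2 CPM 4.01 against 4.02). Its fitted log2 change was -0.70 with COM, -0.40 with DB, -0.53 with SPH, -0.66 with TK and -0.54 with TN, with SEs of 0.102 to 0.109.

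SLC25A25 (chr9:128068201-128109245) encodes a calcium-regulated carrier of ATP-Mg and phosphate in the inner mitochondrial membrane. Levels were 15, 14.7, 19.1 and 16.1 CPM with COM, and 16.8, 15.3, 22.4 and 17.5 CPM with DB. Those with SPH were 16.4, 17.8, 18.5 and 16.4 CPM, those with TK 17.3, 19.4, 19 and 17.7 CPM, and those with TN 15.9, 15.4, 18 and 18.9 CPM. Control ran from 12.2 to 15.4 CPM with a median of 13.6. SPH and TK lay above all Control libraries, and the lowest COM, DB and TN libraries met its upper end. The log2 fold change was 0.31 with COM, 0.46 with DB, 0.41 with SPH, 0.33 with TK and 0.38 with TN, with SEs of 0.070 to 0.074.

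TUFT1 (chr1:151540305-151583583) encodes tuftelin, an acidic protein first described in developing enamel and present in many other tissues. It had 31.1, 29.7, 32.8 and 35.7 CPM with COM, and 30.8, 30.8, 43.3 and 31.5 CPM with DB. With SPH it had 27.4, 33.7, 38 and 32.6 CPM, with TK 40.2, 37.9, 40.7 and 39.2 CPM, and with TN 36.8, 27.5, 37.6 and 29.1 CPM. Control ran from 21.7 to 29.8 CPM with a median of 25.5. DB and TK lay above all of Control, and COM B, SPH A, TN B and TN D fell within its range. The fitted log2 changes were 0.40 with COM, 0.47 with DB, 0.42 with SPH, 0.50 with TK and 0.42 with TN, with SEs of 0.083 to 0.086.

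Per length, in TPM (abundance corrected for transcript length), the genes spanned a wide range in Control. EIF5 averaged 78.7 ± 18.7 TPM (SD, n = 7, as for the next values), NET1 45.4 ± 3.59, IFRD1 16.4 ± 5.19 and TUFT1 11.1 ± 1.65 TPM. DAPP1 averaged 7.06 ± 0.594, SLC25A25 5.15 ± 0.605 and TENT5A 4.57 ± 0.613 TPM. In that order the SDs of SLC25A25 and TENT5A, and those of IFRD1 and TUFT1, overlapped. With crystals EIF5 averaged 85.4 ± 22.9 TPM with COM, 95.8 ± 28.1 with DB, 84 ± 35.3 with SPH, 121 ± 9.76 with TK and 79.5 ± 13.8 with TN (n = 4 each). Their SDs overlapped that of Control except with TK. In set 1 SPH A had 50.5 TPM of EIF5, below both Control libraries (53.31 and 69.9), and DB A 81.53, above both. The EIF5 changes in CPM therefore need not hold in TPM, and the part of transcript length was not tested.

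**Figure D2:**
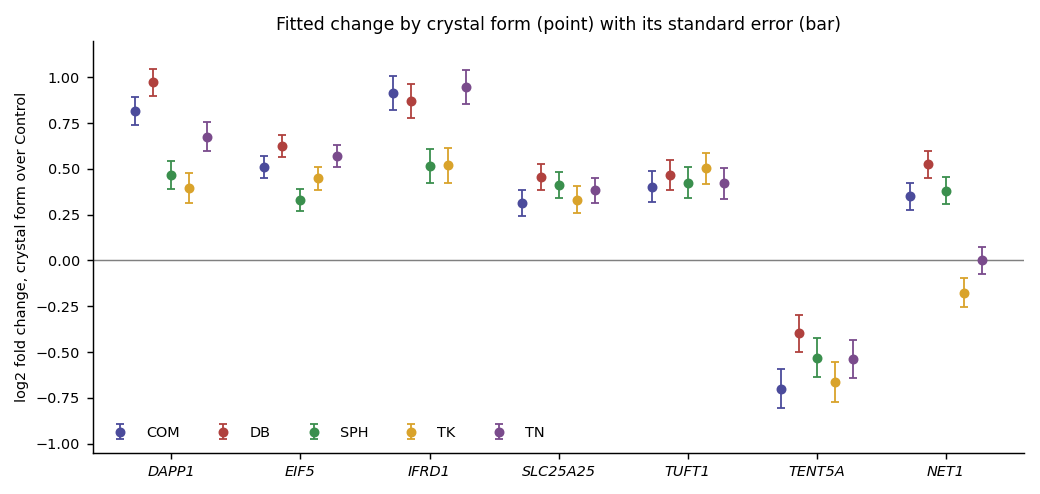
Fitted log2 fold change of each listed gene (y axis) for each crystal form over Control, with bars of 1 SE and colours for the forms. SLC25A25 and TUFT1 hold a narrow band (0.31 to 0.46 and 0.40 to 0.50), while DAPP1 runs from 0.39 with TK to 0.97 with DB and NET1 from -0.17 with TK to 0.53 with DB.

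The forms were then compared with each other. These are other contrasts than those that chose the genes, but they use the same crystal libraries, so the tests are not fully independent of the choice. A joint test of the 5 forms called 4 of the 7 listed genes, where 16.3% of all genes were called. NET1 (adjusted p = 3.1e-05), DAPP1 (0.00023), IFRD1 (0.0047) and EIF5 (0.019) passed, EIF5 not when SPH A or SPH D was left out. TENT5A (0.26), SLC25A25 (0.59) and TUFT1 (0.91) did not pass the test. For TUFT1 the widest interval among the 10 pairs was -0.31 to 0.11 on the log2 scale, for COM minus TK. The SLC25A25 interval that reached farthest from 0 was -0.30 to 0.02, for COM minus DB.

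No listed gene was called between the monohydrate plates and the dihydrate dumbbells (0.198% of all genes called), where the largest log2 difference was -0.30 for TENT5A (95% interval -0.54 to -0.07). None was called between plates and spheres (0.544% of all genes), where IFRD1 differed by 0.40 (0.19 to 0.61, adjusted p = 0.078) and DAPP1 by 0.35 (0.17 to 0.53, adjusted p = 0.058). None was called between thick and thin bipyramids (0.216% of all genes), where IFRD1 was at -0.43 (-0.66 to -0.19, adjusted p = 0.14). The lack of calls in these last pairs depended on the fit. With DESeq2 as the test, and also without DB D, DAPP1 and IFRD1 were called between plates and spheres and IFRD1 between thick and thin bipyramids. With no filter on low counts IFRD1 was called in both pairs. COM over TK called DAPP1 (log2 difference 0.42, SE 0.095, adjusted p = 0.0037), IFRD1 (0.40, SE 0.114, adjusted p = 0.018) and NET1 (0.53, SE 0.091, adjusted p = 0.00042), against 14.5% of all genes. DB over TK called DAPP1 (0.58), IFRD1 (0.35) and NET1 (0.70), with adjusted p of 0.00021, 0.031 and 2.2e-05, against 17.8% of all genes. DB over SPH called DAPP1 alone (0.51, SE 0.084, adjusted p = 0.0054), in a comparison that called 0.247% of all genes.

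COM over TN called NET1 (0.35, adjusted p = 0.014; 5.03% of all genes were called). DB over TN called DAPP1 (0.29, adjusted p = 0.024) and NET1 (0.53, adjusted p = 0.00031), against 10.3% of all genes. SPH over TK called NET1 (0.56, adjusted p = 0.00077), against 5.6% of all genes. SPH over TN called NET1 (0.38, adjusted p = 0.020) and IFRD1, which was lower with SPH (-0.43, adjusted p = 0.035), against 1.27% of all genes. NET1 was called in all 6 pairs that set a bipyramid form against plates, dumbbells or spheres, a grouping made after its values were seen. These p-values were adjusted over genes within each pair and not over the 10 pairs. When each library was left out in turn, 6 of the 13 calls held every time, namely NET1 in COM over TK, DB over TK, DB over TN and SPH over TK, and DAPP1 in COM over TK and DB over TK. DAPP1 in DB over SPH was lost without SPH D, and in DB over TN without DB A, DB D or TN B. NET1 was lost in COM over TN without COM A, COM B, TN A or TN B, and in SPH over TN without SPH A, SPH C, TN A or TN B. IFRD1 was lost in COM over TK without COM A, COM D, SPH C, TK A or TK D. It was lost in DB over TK without Control C, Control E, DB C, DB D, SPH C, TK A, TK B or TK D, and in SPH over TN without any SPH library, TN A or TN B. No IFRD1 call between forms held when the set term was dropped. Without TN B, NET1 in DB over TN was thus the call with TN that held.

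Since TK is in set 2 only, the same values can be set side by side within that set. The C libraries of COM, DB, SPH and TN had 137, 139, 149 and 132 CPM of NET1, all above the 98.6 to 107 CPM of the 4 TK libraries. DAPP1 had 26.2, 29.6, 22.2 and 24.4 CPM in those C libraries, against 18.7 to 22.1 CPM with TK. IFRD1 had 68.7, 69.9, 61.6 and 68.1 CPM there, against 50.9 to 59.7 CPM with TK. For these 3 genes, picked because they were called against TK, the TK libraries did not overlap the C libraries of the other forms, of which each has 1 in the set. DAPP1 in SPH C, at 22.2 CPM, was close to TK B at 22.1 CPM, and the fitted SPH minus TK difference was 0.07 for DAPP1 (95% interval -0.13 to 0.27, adjusted p = 0.74) and 0.00 for IFRD1 (-0.24 to 0.23, adjusted p = 0.99).

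Consistency between library sets was examined next. In CPM, all 20 crystal libraries lay beyond every Control library of their own set for DAPP1, EIF5, IFRD1, SLC25A25 and TUFT1 (higher) and for TENT5A (lower). For NET1, 14 of 20 did. The 13 ratios of a form to Control within a set all had 1 sign for each of the first 6 genes, with medians of 0.68 for DAPP1, 0.49 for EIF5, 0.78 for IFRD1, 0.36 for SLC25A25, 0.43 for TUFT1 and -0.53 for TENT5A on the log2 scale. NET1 had 11 positive and 2 negative ratios. Because the whole fit chose the genes, these counts describe how evenly the libraries contributed.

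**Figure D3:**
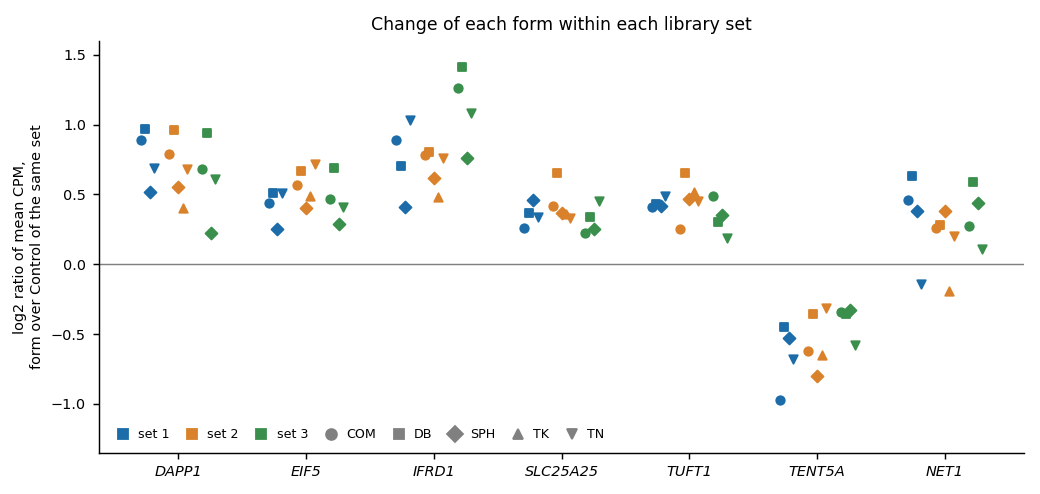
Log2 ratio of mean CPM of each form over Control of the same library set (y axis), with colour for the set and marker shape for the form. All 13 ratios are positive for DAPP1, EIF5, IFRD1, SLC25A25 and TUFT1 and negative for TENT5A, while NET1 with TK and with TN in set 1 lies under 0.

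A test of whether the mean effect of COM, DB, SPH and TN differed between sets called none of the 7. It called 8 of 16173 genes (0.0495%) in all, with 990 at an unadjusted p under 0.05. This contrast did not choose the genes, but it uses the same libraries. A gene whose effect varied between sets was less likely to be chosen, so the lack of calls among the 7 is no independent sign of consistency. DAPP1 changed by 0.77 ± 0.11 (SE) in set 1, 0.75 ± 0.09 in set 2 and 0.61 ± 0.16 in set 3. IFRD1 changed by 0.76 ± 0.09, 0.74 ± 0.08 and 1.13 ± 0.14 in sets 1, 2 and 3 (adjusted p = 0.82). NET1 changed by 0.33 ± 0.06, 0.28 ± 0.05 and 0.34 ± 0.09. As means over forms, these values do not show how single forms varied. The log2 ratios of NET1 to Control of the same set were 0.46, 0.26 and 0.27 with COM and 0.63, 0.28 and 0.59 with DB. They were 0.38, 0.38 and 0.44 with SPH, and -0.14, 0.20 and 0.11 with TN. Set 3 has 1 Control library.

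Untreated cells differed between sets in IFRD1. Control of set 2 averaged 40.1 CPM against 24.1 CPM in Control of set 1, a log2 difference of 0.73 (SE 0.10, adjusted p = 0.00013), and IFRD1 was the single listed gene called where 13.9% of all genes were. TENT5A was at -0.31 (SE 0.11, adjusted p = 0.074). The IFRD1 difference between sets lies within the range of the IFRD1 changes with crystals (0.52 to 0.95). Without the set term the log2 changes of IFRD1 were smaller with COM (0.64), DB (0.59), SPH (0.27) and TN (0.67), and larger with TK (0.80, against 0.52 with the term).

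Calls with SPH were the least stable. Leaving out each of the 27 libraries in turn, over 945 combinations of gene, form and library left out, ended 53 calls, of which 51 were SPH calls. Without SPH B, or without SPH C, none of the 7 genes was called with SPH. SPH A or SPH D, Control A, B, C, E, F or G, DB B, and each TK library also ended SPH calls of 1 to 5 of the genes when left out, TUFT1 most often (13 libraries) and DAPP1 least (the 2 named first). The other 2 losses were SLC25A25 with COM (without COM C) and TENT5A with DB (without DB D). No called value changed direction. With the set term dropped, DAPP1 alone was called in all 5 comparisons. Without TN B, the log2 changes with TN were 0.74 for DAPP1, 0.60 for EIF5, 0.95 for IFRD1, 0.40 for SLC25A25, 0.47 for TUFT1, -0.55 for TENT5A and 0.07 for NET1, and the same 6 genes stayed called with TN.

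The deposited tables also give each gene's transcript length, a mean over isoforms weighted by their estimated abundance, which the choice of genes did not use. A permutation test within sets over all 20 crystal and 7 Control libraries gave EIF5 a length 296 nt greater with crystals and IFRD1 one 272 nt greater (two-sided permutation p = 0.0034 each, 7 genes tested). Neither passed when the same test was adjusted over the 13794 genes whose length varied (adjusted p = 0.45 each), where no gene was called and 7.95% had an unadjusted p under 0.05. In set 1 EIF5 ran from 2846 to 3363 nt with crystals, against 2556 and 2918 nt in Control. Set 2 gave 1987 to 3085 nt with crystals, against 1867 to 2256 nt in Control, and the longest there, TN C, also had the longest fragments of its set (297 nt, against 197.6 to 243.2 nt). Mean fragments were 257.8 to 319.1 nt in set 1, and the part of fragment length in these values was not tested. DAPP1 (2.8 nt), TUFT1 (2.1 nt) and TENT5A (-3.1 nt) had the smallest differences, SLC25A25 was 69.8 nt shorter with crystals (permutation p = 0.05) and NET1 38.4 nt longer (permutation p = 0.069).

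**Figure D4:**
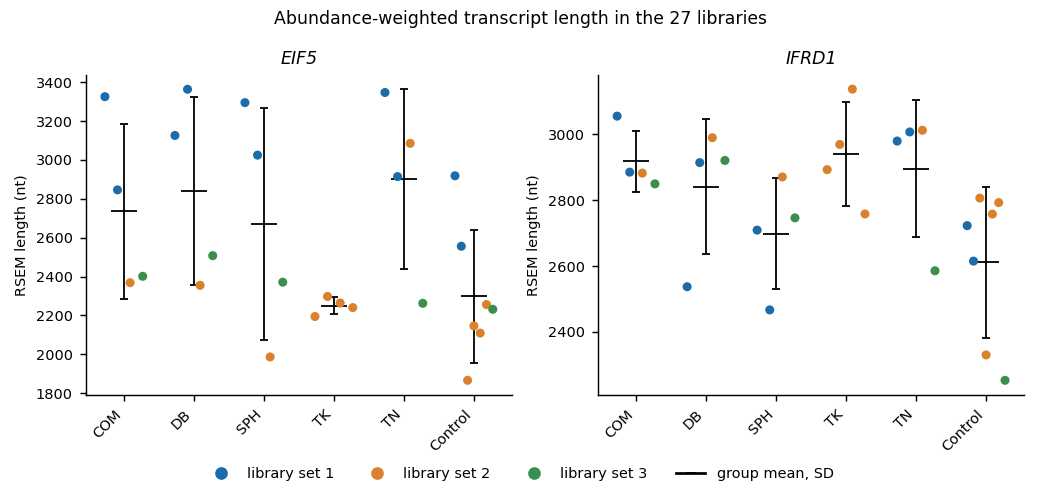
Abundance-weighted transcript length in nt (y axis, not from 0) of EIF5 and IFRD1 by group, with points coloured by library set and bars for the group mean and SD. EIF5 is longer in set 1 than in sets 2 and 3 in most groups, and TK, present in set 2 alone, lies between 2195 and 2298 nt.

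The genes most like each listed gene were found by Pearson's r of log2 CPM over the 27 libraries after set means were subtracted. The libraries of a group share their treatment, so these values describe likeness across groups, with no test. DAPP1 was most like PLAU, the urokinase protease (r = 0.92), SLC39A14, a zinc transporter (0.91), and KLF5, a transcription factor (0.91). EIF5 was most like the tight junction gene CLDN1 (0.92), TMEM154 (0.91) and PTGS2, a prostaglandin synthase (0.91). IFRD1 followed SESN2, a stress-induced sestrin (0.96), CEBPG (0.93) and WTAP (0.92).

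SLC25A25 was most like SDE2 (0.82) and the listed genes EIF5 (0.81) and TUFT1 (0.80), and TUFT1 was most like SDE2 (0.89), NCOA7 (0.88) and PITPNB (0.85). TENT5A followed the transcription factors SOX4 (0.82) and NR2F1 (0.78) and the chaperone HSPA1B (0.81). NET1 followed the zinc finger factor EGR3 (0.92), PRNP (0.90) and SEMA7A (0.89). EGR3 shared the split between forms, with log2 changes of 0.67 with COM, 1.25 with DB and 0.97 with SPH, and -0.38 with TK and 0.16 with TN.

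Among themselves, the 5 genes higher with every form had r of 0.72 to 0.91 over their 10 pairs after set means were subtracted. Positive values were built in, as the genes were chosen for a change with every form. With group means subtracted as well, r fell to between -0.14 and 0.47 with a median of 0.23 (n = 27 libraries, 19 residual degrees of freedom). Pairs with NET1 ran from -0.22 to 0.16 after both steps and pairs with TENT5A from -0.29 to 0.05. Of the 10 pairs among the higher genes, 9 stayed positive, with EIF5 and TUFT1 at 0.47 and EIF5 and IFRD1 at 0.40.

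Lists of genes with related roles were set around each listed gene. Beside their counts stand the shares of all genes called. Of 20 translation initiation factors around EIF5, 8 were higher and 1 lower with TK (8.04% and 7.33% of all genes) and 5 higher and 1 lower with TN (6.84% and 4.88%), beside 1 and 1 with COM (3.94% and 2.42%), 1 and 2 with DB (5.92% and 4.1%) and none with SPH. The COM and DB counts are near these shares. Their median log2 change was 0.16 with TK and 0.11 with TN, against -0.02 and 0.00 over all genes. BZW1, a regulator of start codon choice that resembles EIF5, was called with DB (0.28), TK (0.29) and TN (0.30). EIF4A2, an RNA helicase, was lower with COM (-0.26), TK (-0.37) and TN (-0.34).

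Of 23 tested RhoA pathway genes around NET1, 3 were higher with COM (3.94% of all genes), 4 with DB (5.92%), 3 with TK (8.04%) and 3 with TN (6.84%), none with SPH and none lower. RND3, a small GTPase, was called with COM (0.32), TK (0.56) and TN (0.36), and stood at -0.08 with DB. ARHGEF2, another RhoA exchange factor, was called with COM (0.36), DB (0.41) and TN (0.33), and stood at 0.01 with TK.

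Around DAPP1, 18 phosphoinositide 3-kinase genes gave 1 higher with COM (3.94% of all genes), 4 with DB (5.92%), 2 with TK (8.04%) and none with SPH or TN, and 1 lower with TK (7.33%). The COM and TK counts are near these shares. The regulatory subunit PIK3R3 was called with DB (0.26) and TK (0.32), and the kinase LYN with COM (0.29) and DB (0.25). Around IFRD1, 7 genes were listed, its paralog among them and the rest known as early genes induced by phorbol ester. PTGS2 was called with COM (1.72), DB (1.61), TK (1.38) and TN (1.58), at 61.2 ± 16.1, 55.1 ± 6.18, 50.1 ± 2.12 and 55.4 ± 11.1 CPM (SD, n = 4 each) against 18.9 ± 3.85 CPM in Control (n = 7). FOS, an AP-1 subunit, was lower with COM (-0.63), TK (-1.62) and TN (-1.25). The list as a whole gave 1 higher and 1 lower with COM (6.36% of all genes either way), 1 and 0 with DB (10%), 2 and 3 with TK (15.4%), 2 and 2 with TN (11.7%), and none with SPH.

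Around SLC25A25, 13 mitochondrial carrier and calcium uniporter genes gave 4 higher with TN (6.84% of all genes), 1 with DB (5.92%), 1 with TK (8.04%), and none with COM or SPH or lower. The DB and TK counts are near these shares. The aspartate-glutamate carrier SLC25A13 was called with TK (0.47) and TN (0.36). SLC25A24, a close relative of SLC25A25, was called with DB (0.36) and TN (0.42). Around TENT5A, 10 nucleotidyltransferases and poly(A) polymerases gave 1 higher and 1 lower with TK (8.04% and 7.33% of all genes) and with TN (6.84% and 4.88%), near these shares, and none with the other forms. MTPAP, the mitochondrial poly(A) polymerase, was higher with TN (0.25), and TENT2 was lower with TK (-0.24). Around TUFT1, 3 of 12 listed genes were tested, the enamel and tooth mineral genes FAM20C and FAM83H and the tuftelin partner TFIP11. These gave 1 higher and 1 lower with TK (8.04% and 7.33% of all genes), 1 lower with TN (4.88%) and none with the other forms. FAM20C, a kinase of secreted proteins, was lower with TK (-0.56) and TN (-0.39), and FAM83H was higher with TK (0.23). No list gene was called with SPH, where 18 genes were called in all.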

How the data were processed

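RNA from 27 libraries was measured as polyadenylated mRNA. Per the file headers the authors deposited, for each gene and library, RSEM expected counts, TPM and other values such as transcript length and effective length. Per the submitters' processing notes Trim Galore, RSEM, Bowtie2 and GRCh38 were used, with no version, annotation release or strand setting stated, so overlapping antisense genes cannot be told apart. Expected counts were rounded. In R 4.3.3 with edgeR 4.0.16, genes passed filterByExpr (16173 tested), TMM scaled the libraries, and a single quasi-likelihood model with group and library set took in all of them, after a check on simulated data. CPM uses the TMM-adjusted library size, except for the cell type markers, where it uses the plain sum of expected counts. Fragment length was taken from the difference between length and effective length, as a median over long genes. The sets were defined with the data already seen. The members, the gene lists and the tests were chosen with earlier results of these data known. Named genes are the 7, the 3 most alike of each with a mean of at least 5 CPM, 2 per list by the number of forms called, and genes at the threshold. DESeq2 1.42.0 was an alternative, beside the normalization, the filter, the set term, a replicate letter block, sets alone and leaving out each library. Lengths were compared by 100000 permutations within sets. Whether the letters of libraries pair them was not settled. Of 60 same-letter pairs of different groups, 27 had deviations correlated over 0.1 (range -0.15 to 0.43). Same-set pairs of different groups gave 56 of 104, and different-set pairs 16 of 196. For COM, DB, SPH and TN the letters follow the sets, so these counts cannot tell a letter from a set. Replicate pairs differed by more than sampling noise (chi-square per degree of freedom 2.39 to 63.3).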

Additional observations from a re-analysis of the deposited data

Results flagged for a closer look

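Each of 84 sets of values (CPM and transcript length of the 7 genes in the 6 groups) was examined for a library far from the rest of its group by Dixon's criterion, which chance meets in about 1 of 20 groups, and 9 were found. In CPM, IFRD1 was at 61.6 in SPH C against 29.7 to 32.7 in the other SPH libraries, where untreated cells of the same set were also high. TUFT1 was at 43.3 in DB C against 30.8 to 31.5 in the other DB libraries. NET1 was at 139 in DB C against 177 to 180 in the other DB libraries, and at 107 in TK C against 98.6 to 99.0 in the other TK libraries. In transcript length, IFRD1 was at 2537 nt in DB A (others 2914 to 2990 nt) and at 2586 nt in TN D (others 2980 to 3013 nt). DAPP1 was at 2740 nt in Control D (others 2831 to 2900 nt), TUFT1 at 2974 nt in the same library (others 3041 to 3084 nt) and SLC25A25 at 3392 nt in Control A (others 3439 to 3447 nt). Control D had the shortest fragments of all libraries, at 197.6 nt, and their part in these lengths was not tested.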

How the results depend on the processing

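No called fold change of a listed gene reversed under any alternative, while that of NET1 with TN, which was not called, ran from -0.16 to 0.21. Of the 35 values of a listed gene and form, 33 were called, and RLE scaling and DESeq2 with the set term changed none of these calls. Calls were lost for 13 of 35 values without the set term, 16 of 28 with set 1 alone, 15 of 35 with set 2 alone, 8 of 35 under the replicate block (all 7 with SPH among them) and 1 of 35 with no filter. The call with all 5 forms is limited by SPH and by the set term. Genes called in every comparison numbered 8, against 1 without the set term, 18 with DESeq2, 40 with no filter and 4 with set 2 alone, of which none is a listed gene (PTGS2, SESN2, HSPA1A and HSPA1B). The numbers called without the set term were 543 for COM, 915 for DB, 7 for SPH and 695 for TN (1029, 1620, 18 and 1896 with it). Then 2 listed genes, DAPP1 and NET1, differed among forms (4 with it), with 7 calls over pairs of forms (13 with it), none of them of IFRD1. SPH gave 41 calls with DESeq2 and 136 with no filter. Set 1 alone gave 180 for COM, 49 for DB, 1 for SPH and 1018 for TN, and set 2 alone 140 for COM and 103 for DB. The replicate block, with letters in place of the set term, gave 367 calls for COM, 409 for DB, 2 for SPH and 396 for TN, and 0 genes in every comparison. Under it DAPP1, EIF5 and NET1 differed among forms and IFRD1 did not, with 10 calls over pairs of forms. Not called in the main fit were TUFT1 in COM against TK, TENT5A in DB against TK, and EIF5 and IFRD1 in SPH against TK. The others were the calls between forms that held when each library was left out. Whether the letters pair the libraries was not settled. Placing TN C in set 1, chosen after seeing the data, ended the SPH call of TUFT1. Leaving out each library in turn gave 531 to 1135 calls for COM, 760 to 1995 for DB, 3 to 29 for SPH, 1607 to 2664 for TK, 745 to 2213 for TN, 2 to 12 genes in every comparison, 3 to 4 listed genes differing among forms, 9 to 14 calls over pairs and 1 to 2 listed genes differing between Control sets (the second, without Control D, was TENT5A). The lowest counts came without COM B, DB D, SPH C, TK C and TN A, and counts also moved by over 1.5 times without COM A (565 for COM), without Control A (1023), DB A (916) or DB B (889) for DB, and for SPH without Control A, B, C, F or G, DB D, SPH A, B or D, or TK A (4 to 29). For transcript length, adjustment over the 7 genes passed 2, adjustment over all genes (added after seeing the data) 0, permutation over all libraries 1, and leaving out a library 0 to 2, with 0 without Control B or Control G and 1 without Control C.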
